A study of Mus musculus with 9 samples.

Results

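The 1KO+1CI line was followed here from day 2 to day 4 of differentiation, by comparing the single RNA-seq library of each day over all 15074 genes and all 38385 repeat copies of the deposited expression tables that have a usable name. All of them were members, so none was left out here for its level. The values came from 2 of the 9 libraries of the series. No value in the tables was 0, so features without reads in any 1 of the 9 libraries may be absent from them. The 1KO+1CI cells are mouse J1 embryonic stem cells (ESCs) with both Dnmt1 alleles disrupted (Dnmt1-/-), to which a transgene for DNMT1C1229S, a DNMT1 protein without catalytic activity (DNMT1CI), had been added under the CAG promoter, which is active in nearly all cell types. The study compared them with wild type (WT) J1 ESCs and with 1KO ESCs, which are J1 cells of genotype Dnmt1-/- without a transgene, and it sampled each line undifferentiated (day 0), on day 2 and on day 4. For differentiation, feeder fibroblasts were removed by letting them attach, the ESCs formed embryoid bodies for 1 day in serum medium without leukemia inhibitory factor, and the embryoid bodies then grew attached for 3 days. The same protocol was used for all lines, so day and culture step cannot be told apart. The authors made 2 independent clones of the transgenic line, and the expression column appears to hold 1 of them. Each side of the comparison is 1 library, so none of the differences below has a replicate error, and no significance test was run.

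DNMT1 copies the methylation of CpG dinucleotides to the new DNA strand after replication, while DNMT3A and DNMT3B, helped by the inactive DNMT3L, set new methylation. ESCs that leave the naive state, which resembles the inner cell mass, pass through a formative epiblast-like state and can then switch on genes of the primitive streak, the site where mesoderm and endoderm arise in the embryo. DNA methylation also holds down endogenous retroviruses, above all the intracisternal A-particle (IAP) elements of the mouse.

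Levels are given as FPKM, the number of sequenced fragments per kilobase of a transcript or repeat copy, scaled to the number of fragments in the library. A change is the difference in log2(FPKM + 1), day 4 minus day 2, and a gene or copy is said to have risen or fallen when it changed by at least 1 on this scale, a 2-fold difference of FPKM + 1. The libraries of day 2 and day 4 held about 21.0 and 20 M counted reads (M, mega), and those of the whole series between 20 and 27.8 M. The sum of FPKM over the genes was 391915 at day 2 and 403833 at day 4.

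The Dnmt1 transcript stood at 315, 129 and 158 FPKM on days 0, 2 and 4 in 1KO+1CI cells, at 13.7, 17.4 and 12.3 FPKM in 1KO cells and at 74.0, 80.4 and 48.5 FPKM in WT cells. The libraries labelled 1KO+1CI were thus the highest and those labelled 1KO the lowest on every day, and the changes from day 2 to day 4 were 0.29, −0.47 and −0.72 in the order above. Reads of the transgene and of the disrupted alleles fall on the same gene and were not separated. Pou5f1, which encodes the pluripotency factor OCT4, remained abundant, at 645 FPKM on day 2 and 649.6 FPKM on day 4. Of 18 listed fibroblast genes that would mark remaining feeder cells, 16 were in the table. None of the 16 fell and 1, Acta2, rose, and the other 15 summed to 486 FPKM at day 0, 92.4 FPKM at day 2 and 91.7 FPKM at day 4. On days 2 and 4 these 15 summed to 60.3 and 53.4 FPKM in 1KO cells. In WT cells they summed to 35.9 and 47.7 FPKM, so 1KO+1CI cells had the highest sum on both days. Fewer cells of a type and less RNA of a gene per cell cannot be told apart in these bulk samples, here or in any result below.

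Between day 2 and day 4, 546 of 15074 genes (3.62%) rose and 468 (3.10%) fell in 1KO+1CI cells, and 67 and 70 of these changed 4-fold or more. All counts of listed genes below are to be read beside these shares of 3.62% and 3.10%. The change of 11535 genes (76.5%) was smaller than 0.5, and the median over all genes was −0.01. With a pseudocount of 0.1 in place of 1, 1188 genes rose and 1057 fell. The 20 largest rises among genes with at least 1 FPKM on either day were headed by Fgf8, T, Actc1 and Sp5, and the 20 largest falls by Nr0b1, Enox1, Mylpf and Nphs1. The 20 rises spanned changes of 2.71 to 4.43 and the 20 falls −4.16 to −2.72. Of the 20 genes with the largest rises, 19 also rose in 1KO cells and 11 in WT cells. Of the 20 with the largest falls, 20 also fell in 1KO cells and 18 in WT cells.

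**Figure D1:**
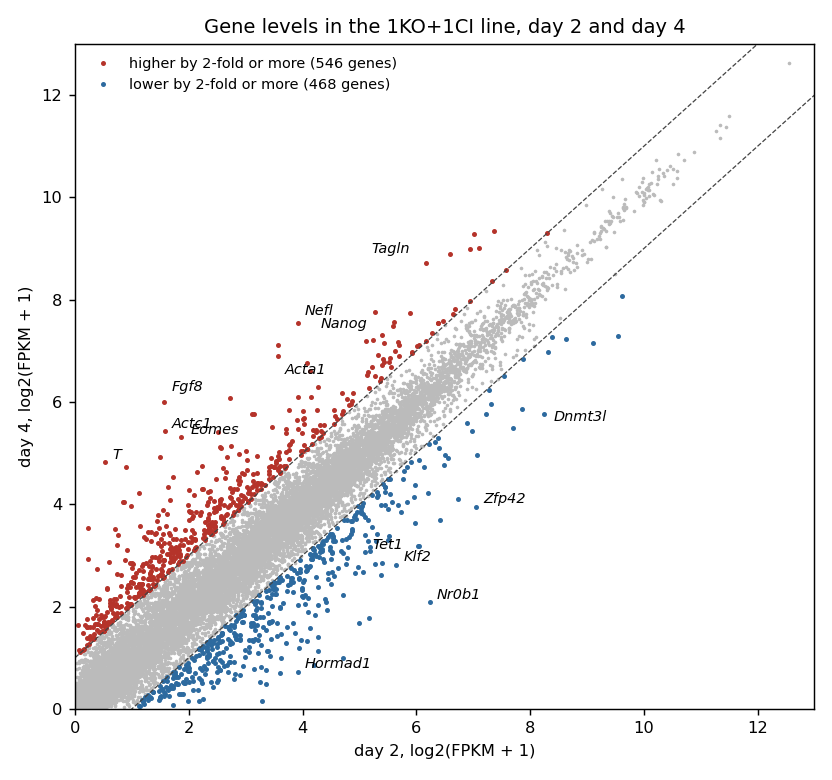
FPKM of every gene in 1KO+1CI cells on day 2 (horizontal axis) and day 4 (vertical axis), both as log2(FPKM + 1), with dashed lines at a 2-fold difference. Red points mark the 546 genes above the upper line and blue points the 468 genes below the lower line, and most genes lie between the lines.

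Over all genes, the course in 1KO+1CI cells followed that in 1KO cells more closely than that in WT cells. Of the 546 genes that rose, 330 also rose in 1KO cells, which is 60.4% of them and 56.2% of the 587 that rose there. In WT cells 182 of the 546 rose, 33.3% of them and 31.5% of the 577 that rose in WT. Of the 468 genes that fell, 342 fell in 1KO cells (73.1% of them and 62.4% of 548) and 234 in WT cells (50% of them and 36.2% of 647). Across the 15074 genes, Pearson's correlation of the changes was 0.81 between 1KO+1CI and 1KO, 0.57 between 1KO+1CI and WT, and 0.71 between 1KO and WT cells. The 3 sets of changes share no library but share genes, day and protocol, and genes are not independent replicates.

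The change in 1KO+1CI was above that in 1KO for 123 genes (0.816%) and below it for 113 (0.750%), and against WT cells these numbers were 514 (3.41%) and 386 (2.56%). With a pseudocount of 0.1 in place of 1, which gives more weight to low genes, 574 genes lay above 1KO and 652 below. All genes with a higher change in 1KO+1CI than in 1KO cells, of any size, made up 47.99% of the table, and those with a higher change than in WT cells 48.67%.

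Genes of naive pluripotency fell. Of 18 listed genes, all in the table, 13 fell, 1 rose, and the median change was −1.73, against −0.01 over all genes. Nr0b1 (chrX:86191775-86195947, GRCm38), which encodes the nuclear receptor DAX1, went from 74.4 FPKM to 3.23 FPKM and fell by 4.16. Zfp42, the gene of the stem cell marker REX1, went from 131 to 14.5 FPKM and fell by 3.09. Klf2, a KLF transcription factor of the naive network, went from 48.9 to 6.06 FPKM and fell by 2.82. Each of these was at a similar or higher level on day 0 than on day 2, with 73.6 FPKM for Nr0b1, 321 FPKM for Zfp42 and 99.7 FPKM for Klf2. Fgf4, the FGF ligand that ESCs secrete, fell from 40.7 to 5.14 FPKM, and Esrrb, an orphan nuclear receptor of the network, fell from 62.3 to 11.4 FPKM. Klf4, Klf5, Tbx3 and Prdm14 did not reach a 2-fold fall, with changes between −0.93 and −0.31. Nanog was the only listed naive gene that rose. It stood at 232 FPKM on day 0, 40.9 FPKM on day 2 and 157 FPKM on day 4, a change of 1.91 from day 2, beside 1.53 in 1KO cells and −0.65 in WT cells, where it went from 89.5 to 56.8 FPKM. Nanog is also transcribed in the posterior epiblast at gastrulation. The medians of the naive genes were −1.79 in 1KO and −1.87 in WT cells, and 17 of the 18 fell in 1KO cells.

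Of 12 further core pluripotency genes, 4 fell and 0 rose. Tdh, a threonine-degrading enzyme of mouse ESCs, fell by 2.00 from 229.6 to 56.8 FPKM, and Sox2, the partner of OCT4, fell by 1.36 from 159 to 61.1 FPKM. Foxd3 and Utf1 fell by 1.21 and 1.12. Pou5f1, Sall4 and Gdf3 changed by less than 0.20. The median of the list was −0.18.

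Formative epiblast genes had a lower median change in 1KO+1CI cells than in the other lines. Of 20 genes, 4 rose and 1 fell, with a median of −0.11 beside 0.31 in 1KO and 1.24 in WT cells. The lines began from different levels. The 20 genes summed to 1078 and 1235 FPKM on days 2 and 4 in 1KO+1CI cells. In 1KO cells they summed to 1037 and 1491 FPKM, and in WT cells to 676 and 1513 FPKM. Fgf5, the usual epiblast marker, rose from 16.7 to 67.0 FPKM, a change of 1.94, beside 2.48 in 1KO cells and 3.81 in WT cells, where it started from 2.52 FPKM. Wnt3, which the paper counts among primitive streak markers, had the largest change of the list. It rose from 0.982 to 14.7 FPKM (2.98, beside 2.30 in 1KO and 1.12 in WT cells). Otx2, a transcription factor of the exit from the naive state, went from 53.3 to 34.3 FPKM (−0.62) in 1KO+1CI cells, from 41.9 to 59.4 FPKM in 1KO cells and from 31.2 to 58.6 FPKM in WT cells. Pou3f1, the POU factor OCT6, changed by −0.68, −0.67 and 1.49 in 1KO+1CI, 1KO and WT cells. Of the 20 genes, 15 had a lower change in 1KO+1CI than in 1KO cells and 17 a lower change than in WT cells, and 11 lay below WT by 2-fold or more. Tcf15, a bHLH factor of the early exit from naive pluripotency, was the only one of the 20 that fell, by 2.74 from 84.9 to 11.9 FPKM.

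**Figure D2:**
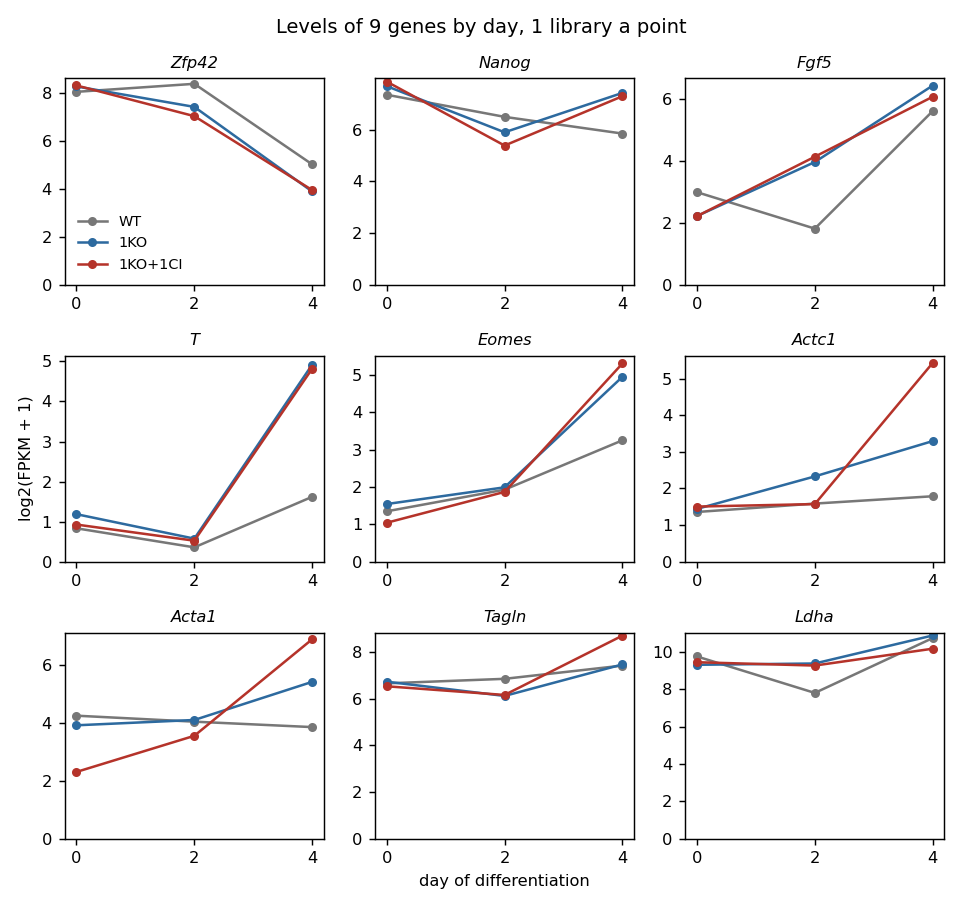
log2(FPKM + 1) of 9 genes on days 0, 2 and 4 in WT (grey), 1KO (blue) and 1KO+1CI cells (red), 1 library a point and no error bars. Zfp42 falls in all 3 lines, T and Eomes rise steeply after day 2 in the 2 lines without active DNMT1, and Actc1, Acta1 and Tagln reach their highest day 4 level in 1KO+1CI cells.

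Genes of the primitive streak rose together. Of 9 genes, 7 rose, 0 fell, and the median change was 2.60, beside 2.28 in 1KO and 0.36 in WT cells. T (chr17:8434423-8442496, GRCm38), which encodes Brachyury, the T-box factor of the streak, went from 0.438 to 27.2 FPKM in 1KO+1CI, from 0.490 to 29.2 FPKM in 1KO and from 0.282 to 2.07 FPKM in WT cells. Its changes were 4.29, 4.34 and 1.26, so the day 4 level in 1KO+1CI cells lay close to that in 1KO cells and far above that in WT cells. Eomes, a T-box factor that precedes endoderm and mesoderm, rose from 2.65 to 38.5 FPKM (3.44, beside 2.96 and 1.32 in 1KO and WT cells). Mixl1, a homeobox gene of the streak, rose from 0.164 to 6.66 FPKM (2.72, 2.28 and 0.36). Fst, which encodes the activin and BMP antagonist follistatin, rose by 2.60, and Evx1 and Snai1 rose by 1.58 and 1.04. Nodal, the TGF-beta ligand that the streak depends on, went from 39.7 to 75.7 FPKM and missed the 2-fold mark at 0.91. All 9 changes were above those of WT cells, 7 of them by 2-fold or more, and 7 were above those of 1KO cells, none by 2-fold or more.

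Listed genes of later or other lineages changed as follows, beside 3.62% of all genes that rose and 3.10% that fell. In lists this short, a count of 0 is close to that share. Of 13 nascent mesoderm genes in the table, 0 rose and 1 fell, with Dll1, a Notch ligand of the presomitic mesoderm, going from 9.31 to 1.20 FPKM, and 6 of the 13 were under 1 FPKM on both days. Of 12 blood and endothelium genes 0 rose, and Pecam1, which ESCs also express, fell by 2.64. The 7 Hox genes in the table were all under 1 FPKM on both days, while 19 of the 26 listed were not in it. Of the 24 listed nascent mesoderm genes, 11 were not in it either. No value in the table was 0, so a gene without reads in 1 library may be missing, and nothing is known here of these genes. Foxa2, a forkhead factor of the anterior streak and endoderm, rose from 0.394 to 2.46 FPKM, while Sox17 stood at 0.703 and 1.63 FPKM and Gata6 at 2.35 and 1.29 FPKM. Of the 7 primitive endoderm genes 2 rose, Foxa2 and the collagen gene Col4a1 (22.5 to 46.7 FPKM), and 6 had a positive change. The 7 genes summed to 70.4 FPKM on day 2 and 118 FPKM on day 4 in 1KO+1CI, to 47.8 and 71.5 FPKM in 1KO and to 36.2 and 55.6 FPKM in WT cells, mostly through Col4a1 and the laminin gene Lamb1, and the median change was 0.57, 0.30 and 0.29. Gene by gene, 4 of the 7 changed more in 1KO+1CI than in 1KO cells and 3 more than in WT cells. The medians of these differences were 0.03 and −0.08, so the list did not change more in 1KO+1CI cells as a whole. The neural genes Sox1 and Pax6 stood at 0.294 and 0.520 FPKM on day 4, and 1 of the 11 neural genes rose, Nes, an intermediate filament gene, from 12.1 to 43.6 FPKM. Of 9 trophoblast genes, Krt7 rose (1.63) and Ascl2 fell by 1.46, and of 9 surface ectoderm and neural crest genes 0 changed 2-fold. Nefl and Nefm, neurofilament genes of neurons, rose from 14.1 to 187 FPKM and from 10.8 to 137 FPKM, changes of 3.64 and 3.55, beside 2.82 and 2.50 in 1KO and 1.56 and 1.02 in WT cells.

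Ligands, receptors and targets of the signals that act on the streak changed unevenly. In the Wnt pathway, where secreted ligands stabilise β-catenin so that it acts with TCF and LEF factors, 9 of 31 genes rose and 1 fell (median 0.48). Among ligands, Wnt3, Wnt8a and Wnt5b rose by 2.98, 1.66 and 1.52. Wls, which carries Wnt proteins to the cell surface, rose from 3.27 to 17.2 FPKM, and the receptor gene Fzd10 rose from 3.35 to 13.5 FPKM. Of the common Wnt targets, Sp5, a zinc finger factor, rose from 0.853 to 25.6 FPKM (3.84, beside 3.41 in 1KO and 0.89 in WT cells) and Axin2, a feedback inhibitor, from 3.04 to 13.3 FPKM. Sp5 had stood at 4.40 FPKM on day 0 in 1KO+1CI cells. Notum, an enzyme that inactivates Wnt ligands, fell by 2.63 from 14.6 to 1.53 FPKM, and Ctnnb1, the β-catenin gene, stood at 268 and 257 FPKM.

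In the Nodal pathway 3 of 17 genes rose and 0 fell. Among the 3 were Furin, a protease that processes the Nodal precursor (4.95 to 12.3 FPKM), and Lefty2, a feedback antagonist (59.7 to 123 FPKM). In the FGF-ERK pathway 3 of 23 rose and 2 fell. Fgf8 (chr19:45736491-45742941), an FGF ligand of the streak, had the largest rise of all ranked genes, from 1.96 to 63.0 FPKM (4.43), and it changed by 5.39 in 1KO and 3.20 in WT cells. Fgf17 rose from 2.31 to 7.30 FPKM, with a change of −0.04 in 1KO and −0.42 in WT cells. Fgf4 fell, and Spry4, an inhibitor of FGF receptor signals, fell by 1.67 from 36.2 to 10.7 FPKM. In the BMP pathway only Fst of 21 genes rose, and in the Notch pathway, where cells signal to their neighbours, Hes1 rose and Dll1 fell among 13 genes. In the retinoic acid pathway 3 of 14 genes rose and 2 fell. Cyp26a1, which breaks retinoic acid down, rose from 0.504 to 6.30 FPKM, and the receptor gene Rarg fell by 1.81 from 60.8 to 16.7 FPKM. Of 16 caudal and organizer genes, a list that overlaps with these pathways, 7 rose and 0 fell.

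**Figure D3:**
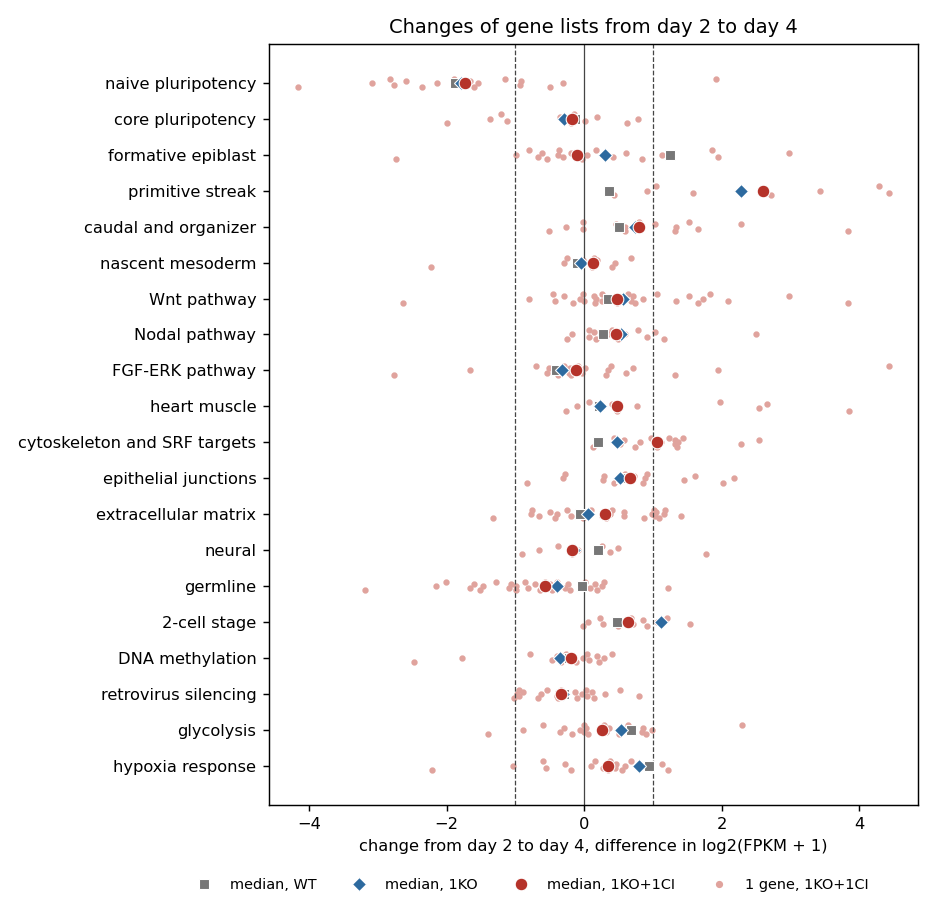
Changes from day 2 to day 4 for 20 of the gene lists, with small points for the single genes in 1KO+1CI cells and large symbols for the median of each list in 1KO+1CI (red circle), 1KO (blue diamond) and WT cells (grey square). The dashed lines mark 2-fold, and the medians lie beyond them for the naive pluripotency list in all 3 lines, for the primitive streak list in 1KO+1CI and 1KO cells, for the cytoskeleton and SRF list in 1KO+1CI cells, for the 2-cell list in 1KO cells and for the formative epiblast list in WT cells.

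The sequences before the start sites of T and Sp5, the streak factor and the Wnt target with the largest rises of their lists outside the FGF ligands, are shown because TCF and LEF factors act through sites that contain CTTTGA. The windows are the 250 bases before the RefSeq start (GRCm38.p6, the build of mm10), read 5′ to 3′ on the gene's strand, with each CTTTGA or its reverse complement TCAAAG in capitals. The window of T lies at chr17:8434173-8434422 (plus strand) and that of Sp5 at chr2:70474673-70474922 (plus strand).
T: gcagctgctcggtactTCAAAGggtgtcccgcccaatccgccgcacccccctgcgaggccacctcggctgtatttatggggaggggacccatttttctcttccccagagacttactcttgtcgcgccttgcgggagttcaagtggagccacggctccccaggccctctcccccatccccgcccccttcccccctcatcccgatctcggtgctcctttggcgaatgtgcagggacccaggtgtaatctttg
Sp5: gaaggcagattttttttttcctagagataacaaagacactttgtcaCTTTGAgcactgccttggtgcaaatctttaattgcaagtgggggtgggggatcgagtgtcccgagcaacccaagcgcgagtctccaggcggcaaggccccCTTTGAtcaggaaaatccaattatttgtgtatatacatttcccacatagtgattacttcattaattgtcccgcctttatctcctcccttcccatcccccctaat
The window of Sp5 held 2 matches, with 98 bases between the nearer and the start while the farther began 204 bases before it, and that of T held 1, on the reverse strand. On either strand, the letters occurred in 13.8% of all 32851 windows, in 6 of the 19 genes of the Wnt list with a window and in 1 of 6 of the streak list, so their presence does not set T apart. A match describes these letters only, and binding was not measured.

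Genes of the actin cytoskeleton, many of them targets of the serum response factor (SRF), changed more in 1KO+1CI than in 1KO cells. Of 20 listed genes in the table, 12 rose and 0 fell, with a median change of 1.06, beside 0.48 in 1KO and 0.20 in WT cells. All 20 had a higher change in 1KO+1CI than in 1KO cells, and 1 of them, Tagln, differed by 2-fold or more. Tagln (chr9:45929628-45936058), which encodes the actin-binding protein transgelin, stood at 91.8, 70.7 and 417 FPKM on days 0, 2 and 4 in 1KO+1CI, at 105, 68.7 and 177 FPKM in 1KO and at 100.3, 115 and 171 FPKM in WT cells. The 1KO+1CI level on day 4 was the highest of the 9, while the level on day 2 was among the lower ones. The tropomyosin gene Tpm1 rose from 128 to 625 FPKM (2.28, beside 1.76 in 1KO and 0.83 in WT cells). Cald1, which encodes caldesmon, rose by 1.33 and Zyx, a focal adhesion protein, by 1.06. Actb, the cytoplasmic β-actin gene and the smallest change of the list, stood at 1063 and 1159 FPKM, and Srf itself at 15.4 and 22.6 FPKM.

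Of the actin genes of muscle, Actc1 and Acta1 rose further than any gene of that list. Actc1 (chr2:114047282-114052875), α-cardiac actin, stood at 1.84, 1.98 and 42.1 FPKM on days 0, 2 and 4 in 1KO+1CI cells, at 1.72, 4.03 and 8.81 FPKM in 1KO cells and at 1.56, 2.00 and 2.45 FPKM in WT cells. Only the day 4 library of 1KO+1CI exceeded 10 FPKM, and the changes from day 2 were 3.85, 0.96 and 0.20. Acta1, α-skeletal actin, went from 10.8 to 119 FPKM in 1KO+1CI, from 16.3 to 42.2 FPKM in 1KO and from 15.6 to 13.6 FPKM in WT cells. Acta2, smooth muscle actin, rose from 36.6 to 147 FPKM in 1KO+1CI cells (1.98, beside 0.60 and −0.24 in 1KO and WT cells), although its level on day 0 was already 90.5 FPKM. Cnn1, calponin, rose from 7.60 to 53.1 FPKM. Of 11 heart muscle genes in the table these 4, Actc1, Cnn1, Tagln and Acta2, rose, and the remaining 7, among them Myh6, Myh7, Tnnt2 and Mef2c, summed to 3.57 FPKM on day 2 and 5.90 FPKM on day 4. Near-identical coding sequences of the actin genes can share reads, and how such reads were counted is not given in the sources used here.

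**Figure D4:**
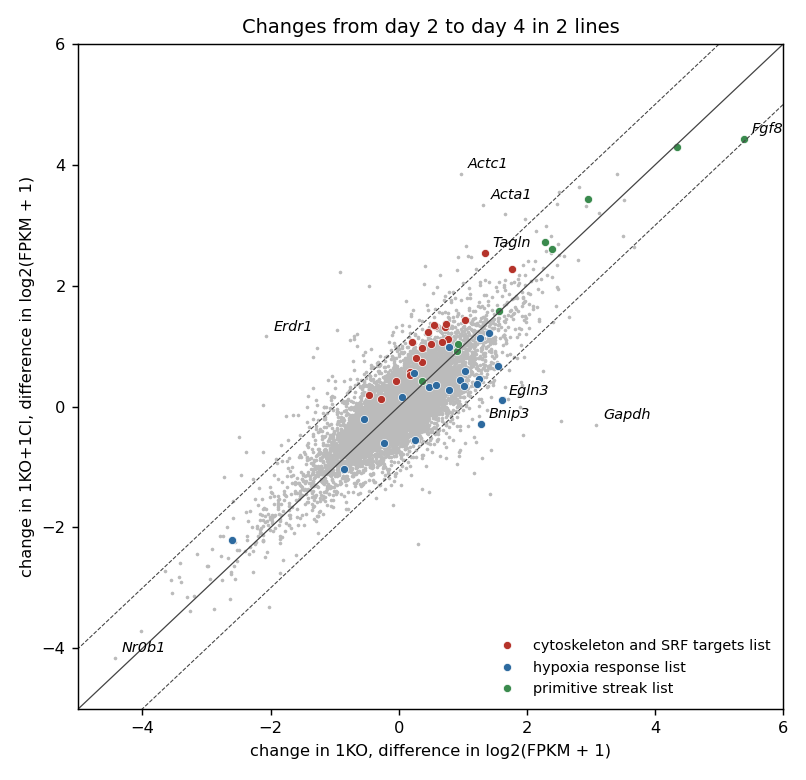
Change of every gene from day 2 to day 4 in 1KO cells (horizontal axis) and in 1KO+1CI cells (vertical axis), both as differences in log2(FPKM + 1), with the line of equal change and dashed lines at a 2-fold difference between the lines. Cytoskeleton genes (red) lie above the line of equal change, glycolytic Gapdh and the hypoxia genes Bnip3 and Egln3 below it, and the streak genes (green) close to it.

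Actc1 and Acta1 were among the 10 genes with the largest excess over 1KO cells, and their start regions are shown because SRF acts through the CArG box. The windows are the 250 bases before the RefSeq start (GRCm38.p6), on the gene's strand. Exact matches to the CArG box, CCWWWWWWGG with W for A or T, are in capitals. They lie at chr2:114052876-114053125 (minus strand) for Actc1 and at chr8:123894776-123895025 (minus strand) for Acta1.
Actc1: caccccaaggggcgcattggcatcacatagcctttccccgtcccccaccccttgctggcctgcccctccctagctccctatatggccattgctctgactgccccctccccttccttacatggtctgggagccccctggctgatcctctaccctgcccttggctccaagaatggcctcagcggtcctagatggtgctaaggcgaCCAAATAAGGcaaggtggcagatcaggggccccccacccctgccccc
Acta1: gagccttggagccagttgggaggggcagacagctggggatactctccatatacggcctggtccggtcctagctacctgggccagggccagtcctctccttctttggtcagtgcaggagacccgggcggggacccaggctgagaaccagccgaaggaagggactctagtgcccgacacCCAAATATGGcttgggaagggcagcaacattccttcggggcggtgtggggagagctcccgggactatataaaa
Each window held 1 exact match to the CArG box, with 37 bases between it and the start in Actc1 and 63 bases in Acta1. Sites that differ from it in 1 base were not counted. The motif occurred in 1.47% of all 32851 windows and in 1.41% of the 11638 genes with a window. In the cytoskeleton list it occurred in 5 of the 17 genes with a window, Actg1, Myl9, Vcl, Cnn2 and Srf. That list was chosen to include SRF targets, so its share says nothing about SRF in these cells. A match describes these letters only, and binding was not measured. Tagln had no window in the table used.

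Keratin genes and some junction genes of epithelia rose as well. Krt8, Krt18 and Krt19, keratins of simple epithelia, went from 46.9, 33.8 and 16.5 FPKM to 177, 145 and 96.1 FPKM. Their changes of 1.90, 2.06 and 2.47 compared with 0.78, 1.26 and 1.13 in 1KO and 0.01, 0.35 and 0.36 in WT cells. They and Trh, a hormone precursor, were the 4 that rose of the 10 definitive endoderm genes in the table, and the other 6 summed to 8.40 FPKM on day 2 and 6.28 FPKM on day 4. Of 17 epithelial junction genes, 4 rose and 0 fell. The tight junction gene Cldn7 rose from 14.2 to 67.9 FPKM and did so in all lines (2.18, 1.87 and 2.47). Dsp, desmoplakin of the desmosomes, rose from 4.55 to 21.5 FPKM, beside a change of −0.15 in WT cells. Of 29 extracellular matrix genes, 7 rose and 1 fell. The basement membrane genes Col4a1, Col4a2, Lama5 and Hspg2 rose by 1.02 to 1.18, and Spp1, osteopontin, fell by 1.32 from 316 to 126 FPKM. Of 18 yolk sac and parietal endoderm genes, 4 rose and 0 fell. Of 18 mesenchymal genes, 3 rose, the actin regulators Tpm1, Cald1 and Tpm2, and 2 fell, Tgfbi, an extracellular matrix protein, and Zeb1, a repressor of epithelial genes.

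The enzymes that write and remove DNA methylation declined in part. Of 18 DNA methylation genes 2 fell and 0 rose. Dnmt3l fell by 2.48 from 304 to 53.7 FPKM, and Dnmt3a fell by 1.78 from 55.8 to 15.5 FPKM, beside −1.45 in 1KO and 0.27 in WT cells, where it went from 32.8 to 39.7 FPKM. Dnmt3b stood at 220.3 FPKM on day 2 and 226 FPKM on day 4, a change of 0.04, beside 0.55 in 1KO and 1.76 in WT cells. Uhrf1, which brings DNMT1 to replicated DNA, stood at 138 and 99.7 FPKM. Of 14 genes of TET oxidation and base excision repair, Tet1 fell by 2.04 from 33.4 to 7.36 FPKM and Tet2 by 1.87 from 4.24 to 0.436 FPKM, while Tet3 stayed at 2.85 and 2.87 FPKM. Both fell in all 3 lines. Of 24 retrovirus silencing genes 1 fell, Zfp809, a zinc finger repressor of murine leukemia virus elements, from 30.6 to 14.6 FPKM, and 0 rose. Over all genes 3.10% fell and 3.62% rose, so this list lay near that background. Of 26 polycomb genes 3 fell, the accessory factors Phf19, Jarid2 and Mtf2, by 1.81, 1.53 and 1.08, and of 11 H3K9 and H3K4 demethylase genes Kdm3a fell by 1.04.

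More germline genes, many of which depend on promoter methylation for silencing, fell than rose. Of 34 in the table, 10 fell, 1 rose and 27 had a negative change, with a median of −0.57, beside −0.40 in 1KO and −0.04 in WT cells. Hormad1, a protein of the meiotic chromosome axis, fell by 3.19 from 14.1 to 0.649 FPKM. It went from 9.35 to 0.669 FPKM in 1KO and from 2.53 to 0.533 FPKM in WT cells, so the lines lay further apart on day 2 than on day 4. Dazl, a germ cell RNA-binding protein, fell by 2.16 from 13.3 to 2.20 FPKM and stood at 2.30 and 2.11 FPKM in WT cells. The meiotic cohesin genes Smc1b and Stag3 fell by 2.01 and 1.66. Tdrd5, a Tudor protein of the piRNA pathway, rose from 1.84 to 5.66 FPKM. Sycp3, of the synaptonemal complex, went from 9.55 to 4.98 FPKM in 1KO+1CI cells (−0.82) but from 6.92 to 11.4 FPKM in 1KO and from 6.71 to 16.2 FPKM in WT cells.

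Imprinted genes, which are expressed from 1 parental allele under the control of methylated regions, moved in both directions. H19, a maternally expressed RNA, rose from 87.9 to 189.5 FPKM in 1KO+1CI and from 86.7 to 184 FPKM in 1KO cells, and stood at 6.80 and 7.98 FPKM in WT cells. Its levels in the Dnmt1-/- lines were above those in WT cells on both days. Cdkn1c, a growth inhibitor, fell by 1.50 from 8.86 to 2.48 FPKM in 1KO+1CI cells, but went from 21.8 to 42.7 FPKM in WT cells (0.94). Of 15 maternally expressed genes, 2 rose and 2 fell. Of 26 paternally expressed genes 3 rose and 0 fell, namely Plagl1, a zinc finger factor (5.63 to 18.96 FPKM), Peg3 (45.6 to 115 FPKM) and Nnat (44.8 to 109 FPKM).

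Of 14 genes of the 2-cell stage, 3 rose and 0 fell. Zscan4d went from 0.307 to 2.81 FPKM, Usp17lb from 0.749 to 3.03 FPKM and Usp17le from 0.749 to 2.65 FPKM. All 3 were higher on day 0, at 6.13, 4.82 and 3.83 FPKM. The median was 0.64 in 1KO+1CI, 1.11 in 1KO and 0.48 in WT cells, and 12 of the 14 had a lower change in 1KO+1CI than in 1KO cells. Copies of the Zscan4 and Usp17l families are nearly identical, so the values of the single genes are uncertain.

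Glycolysis genes had a lower median change in 1KO+1CI cells than in either other line. Of 23 glycolysis genes 1 rose and 1 fell, and 22 had a lower change than in 1KO cells and 18 a lower one than in WT cells. The medians were 0.25, 0.54 and 0.68 in 1KO+1CI, 1KO and WT cells. On days 0, 2 and 4 the 23 genes summed to 6531, 5870 and 7973 FPKM in 1KO+1CI cells. In 1KO cells they summed to 6099, 5994 and 11101 FPKM, and in WT cells to 8634, 3906 and 9789 FPKM. The WT change thus started from a day 2 sum below that of day 0. Ldha, lactate dehydrogenase A, went from 615 to 1150.2 FPKM in 1KO+1CI, from 664 to 1878 FPKM in 1KO and from 222 to 1706 FPKM in WT cells, changes of 0.90, 1.50 and 2.93. Pgk1, phosphoglycerate kinase, changed by 0.86, 1.69 and 2.17. Slc2a3, the glucose transporter GLUT3 and the 1 gene that rose, went from 96.0 to 476 FPKM, and Pfkp, a phosphofructokinase, fell by 1.39 from 40.7 to 14.9 FPKM. Gapdh had the largest deficit against 1KO cells of all ranked genes, but only through the day 4 library of 1KO. It was listed at 15.8 and 12.7 FPKM in 1KO+1CI and at 12.8 and 7.85 FPKM in WT cells, and at 19.05 and 168 FPKM in 1KO cells, and its many processed copies in the genome make these values uncertain.

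Of 21 hypoxia response genes, 2 rose and 2 fell, with a median of 0.34, beside 0.79 in 1KO and 0.94 in WT cells. The change in 1KO+1CI was the lower one in 16 genes against 1KO cells and in 13 against WT cells, the latter not far from the share over all genes. Bnip3, a mitophagy receptor, went from 52.5 to 42.9 FPKM in 1KO+1CI, from 51.6 to 128 FPKM in 1KO and from 19.4 to 138 FPKM in WT cells. Egln3, an oxygen-sensing prolyl hydroxylase, changed by 0.10, 1.61 and 2.26 in the same order. On day 4 both genes were lower in 1KO+1CI than in the other lines, and on day 2 they were lowest in WT cells. Egln1, a second prolyl hydroxylase, and P4ha2, a collagen prolyl hydroxylase, rose by 1.22 and 1.14, and Epas1, which encodes HIF2A, fell by 2.21.

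Other metabolic and stress lists changed little. All 24 cholesterol synthesis genes had a positive change, but only Ebp, a sterol isomerase, rose (5.84 to 15.6 FPKM), and the median was 0.42. Of 45 genes of oxidative phosphorylation, 0 changed 2-fold. Of 36 cell cycle genes, Mycl rose from 7.15 to 19.2 FPKM and Cdkn1c fell. Of 22 p53 targets, Plk3 and Gdf15 fell by 1.63 and 1.82, and 19 of the 22 had a higher change in 1KO+1CI than in 1KO cells (medians −0.17 and −0.51). Of 20 genes of serine and one-carbon metabolism Trib3, a stress-induced pseudokinase, fell by 1.29, and of 20 autophagy and lysosome genes 0 changed 2-fold. Of 25 interferon response genes 2 rose, Isg15, a ubiquitin-like protein (0.999 to 5.72 FPKM), and the chemokine gene Cxcl10 (1.85 to 8.95 FPKM). Psmb8, a subunit of the immunoproteasome, and Gbp2, an interferon-induced GTPase, were among the 20 largest rises, at 2.82 and 2.90. Psmb8 stood at 7.8, 2.28 and 22.2 FPKM on days 0, 2 and 4 in 1KO+1CI cells, and Gbp2 at 12.5, 4.73 and 41.8 FPKM. Ltb, the lymphotoxin beta gene, rose from 0.819 to 15.6 FPKM, which rested on 19 and 344 reads.

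Among the 10 genes furthest above 1KO were Actc1 (by 2.89), Acta1 (by 2.02) and Krt17, a stress keratin (by 2.23), and 5 of the 10 were miRNA loci with at most 34 reads in either library. Krt17 went from 2.56 to 7.56 FPKM in 1KO+1CI, from 9.26 to 4.25 FPKM in 1KO and from 10.7 to 2.95 FPKM in WT cells. Among the 10 furthest below were Gapdh, Aldoc, a glycolytic aldolase (by −1.90), and Rpl17, a ribosomal protein gene (by −1.89). Others of these 10 were small RNA loci with few reads in 1KO+1CI cells. Mir684-1 had 17 and 2 reads on days 2 and 4, Mir3112 had 9 and 7, and Snord110 had 5 and 1. Aldoc stood at 1.72 FPKM on both days in 1KO+1CI cells and went from 1.41 to 7.96 FPKM in 1KO and from 1.61 to 7.22 FPKM in WT cells. The highest levels on day 4 were those of Eef1a1, a translation elongation factor (6036 and 6307 FPKM on days 2 and 4), Rpl41 and Rps26, and 0 of the 10 most abundant genes changed 2-fold.

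The gene table also lists miRNA loci, where reads of poly(A) RNA come from precursor or overlapping transcripts and not from mature miRNAs. Of 127 such loci in the table, 13 rose and 11 fell, on few reads. The miR-290 cluster, the main miRNA cluster of mouse ESCs (chr7:3218626-3220841, mm10, over the 7 loci with a position), is described because several of its mature products share a seed, the bases 2 to 8 that pair with targets, and act in the ESC cell cycle. The mature sequences of the 7 3p arms with an entry are given from RefSeq (GRCm38.p6), 5′ to 3′, with the seed in capitals.
miR-291a-3p: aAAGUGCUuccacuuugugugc
miR-294-3p: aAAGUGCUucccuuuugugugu
miR-295-3p: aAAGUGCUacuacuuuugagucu
miR-291b-3p: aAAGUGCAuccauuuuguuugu
miR-290a-3p: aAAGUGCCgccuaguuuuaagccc
miR-293-3p: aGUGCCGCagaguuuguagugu
miR-290b-3p: aAGUGCCCccauaguuugagua
Of these, miR-291a-3p, miR-294-3p and miR-295-3p share the seed AAGUGCU, miR-291b-3p and miR-290a-3p differ from it in the last base of the seed, and miR-293-3p, miR-290b-3p and the 5p arms have other seeds. Summed over the 8 listed loci of the cluster, 104 reads on day 2 and 59 on day 4 gave a ratio of 0.597 per sequenced read in 1KO+1CI cells (exact 95% interval 0.426 to 0.829, counting error only). The ratios were 0.631 (0.430 to 0.920) in 1KO and 0.455 (0.327 to 0.626) in WT cells, and the intervals of the 3 lines overlap. Single loci moved apart, with Mir291b at 33 and 10 reads and Mir294 at 18 and 23 reads on days 2 and 4, and Mir290a and Mir290b lie on opposite strands of the same bases, so their reads cannot be told apart without strand. Any read counted at more than 1 locus would make the intervals above too narrow, and this was not tested.

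More repeat copies fell than rose. Of 38385 copies, 2227 (5.80%) rose and 3836 (9.99%) fell, and the median change was −0.17. With the libraries scaled to the median ratio of the repeat copies, the median became 0.03 and 3413 copies rose while 2213 fell, so the direction of this split rests on the scaling, and repeat changes are to be read against a median of −0.17. With a pseudocount of 0.1, 4546 rose and 9845 fell. Whole reads could be recovered for 34453 copies (89.8%). Of the copies that changed 2-fold and had recovered reads, 29.8% had fewer than 10 reads in the higher library. Copies of a family share sequence, and the handling of reads that match several of them is not given in the sources used here, so copies are not independent measurements.

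IAP elements stood out from this background. Of 633 IAP copies in 16 families, 534 (84.4%) rose and 6 fell, with a median of 2.01, beside 1.58 in 1KO and −0.15 in WT cells. IAPEz-int, the internal coding part of IAP proviruses and the family with the largest rise of the 371 with at least 10 copies, had a mean over its 426 copies of 2.26, 4.62 and 23.4 FPKM on days 0, 2 and 4 in 1KO+1CI cells. The means were 7.14, 4.70 and 17.1 FPKM in 1KO cells and 0.727, 0.792 and 0.563 FPKM in WT cells. IAPEz-int RNA was thus at nearly the same level in both Dnmt1-/- lines on day 2, was highest in 1KO+1CI on day 4, and stayed under 1 FPKM in WT cells throughout. The change of the mean was 2.12 in 1KO+1CI, 1.66 in 1KO and −0.20 in WT cells, and it was 2.40 with the repeat scaling. Every one of the 426 copies had a positive change, 420 rose, the range was 0.41 to 2.82, and 412 changed more in 1KO+1CI than in 1KO cells. The long terminal repeats IAPLTR1_Mm and IAPLTR1a_Mm, which promote IAP transcription, rose with it (1.93 and 1.84), while IAPLTR2a changed by −0.06 and IAPEY3-int by −0.53.

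The next largest rises were RLTR1B-int (13.7 to 45.6 FPKM over 49 copies), RMER16-int (1.47) and LTRIS2 (1.29), LTR retroviral families that also rose in 1KO cells (1.21, 1.30 and 1.04) and not in WT cells (−0.16, −0.16 and −0.16). IAPLTR2_Mm rose by 1.16, in 12 of its 21 copies. In RMER16-int, 15 of 48 copies rose and 2 fell, so a minority of copies carried its mean. MLT1A1, with 12 copies, had a change of 1.07 in its mean through 1 copy that rose, and the median over its copies was −0.35. (CAGG)n, a simple repeat with 10 copies, changed by 0.88 and was the last of the 10 largest rises. MERVL-int, the retrovirus of 2-cell embryos, rose from 0.872 to 2.81 FPKM, beside changes of 1.27 in 1KO and 0.42 in WT cells, and 89 of its 169 copies rose in 1KO+1CI cells and 119 in 1KO cells. Its mean on day 0 had been 2.64 FPKM. MMETn-int, an abundant ERVK family, stood at 67.4 and 67.3 FPKM. The 9 families from IAPEz-int to MERVL-int were all that rose among the 371, and with the repeat scaling these 9 and (CAGG)n rose, 10 in all.

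**Figure D5:**
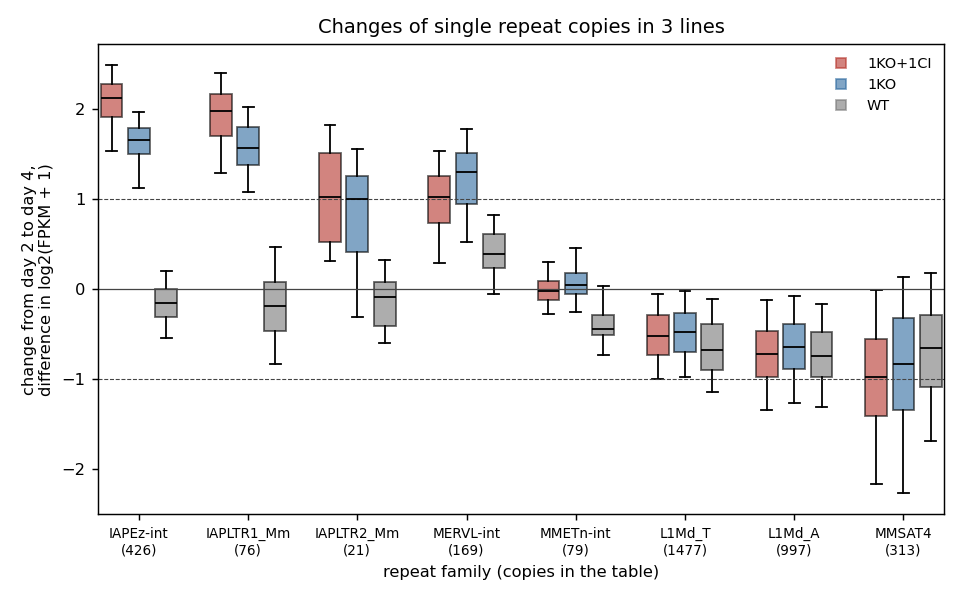
Changes of single repeat copies from day 2 to day 4 for 8 families in 1KO+1CI (red), 1KO (blue) and WT cells (grey), as differences in log2(FPKM + 1), with the number of copies under each name. Boxes span the middle 50% of copies with the median as a line, and whiskers reach from the 5th to the 95th percentile. The medians of IAPEz-int and IAPLTR1_Mm lie above 1 in both Dnmt1-/- lines and just below 0 in WT cells, and those of L1Md_A, L1Md_T and MMSAT4 lie below 0 in all 3 lines.

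Of the 371 families, 3 fell, and MMSAT4, a mouse satellite, had the largest change. Its mean over 313 copies went from 41.7 to 16.5 FPKM (−1.28), 153 copies fell and 0 rose, and the changes in 1KO and WT cells were −1.23 and −0.79. With the repeat scaling the change was −0.96, just inside the mark. RLTR9E, an ERVK long terminal repeat, went from 7.13 to 2.43 FPKM, beside 4.79 and 3.58 FPKM in WT cells, and RLTR20B1 fell by 1.07. With the repeat scaling these changed by −0.97 and −0.89, so no family with at least 10 copies was past the mark downward under it. The other 7 of the 10 lowest families, RLTR17, RLTR12C, RMER15, MurERV4_19-int, RLTR42-int, MurSatRep1 and RLTR11A, changed by −0.97 to −0.83. Young LINE-1 elements, which include the mobile L1 families of the mouse, had a negative change in each of their 10 families, and in 9 of them with the repeat scaling, under which L1_Mus4 changed by 0.10. Of 3406 copies, 357 (10.5%) fell and 4 rose, beside 9.99% and 5.80% of all copies, so the share that fell was near that of all copies, and the median was −0.50. L1Md_A went from 1.30 to 0.314 FPKM, a ratio of 0.240, although at such levels the change in log2(FPKM + 1) was only −0.81. It was −0.73 in 1KO and −0.83 in WT cells, and with a pseudocount of 0.1 in place of 1 it was −1.76 in 1KO+1CI cells. The day 0 level, 0.732 FPKM, lay between the other 2. The short interspersed elements B1 and B2 with B4 had medians of −0.16 and −0.20, close to that of all copies.

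Single copies moved further than families. The largest rises were GA-rich 654, from 15.1 to 275 FPKM, RMER16-int 98, from 9.83 to 176 FPKM, and the CT-rich copies 661, 664 and 662, with changes of 3.94, 3.90 and 3.85, where the number is that of the copy in the table. All 5 changed by 1.99 to 2.99 in 1KO cells. The largest falls were RLTR25A 40, from 25.2 to 0.280 FPKM (189 and 2 reads), the B2_Mm1t copies 1479 and 1464 (by 3.99 and 3.73), (T)n 2004 (21 and 1 reads) and (TGG)n 160 (27 and 1 reads). The table gives no positions, so whether these copies lie inside genes that rose or fell was not determined. Across the 38385 copies, the correlation of the changes was 0.45 between 1KO+1CI and 1KO, 0.26 between 1KO+1CI and WT and 0.31 between 1KO and WT cells, with counting noise in copies of few reads. Of the 2227 copies that rose, 1032 also rose in 1KO cells, 46.3% of them and 41.9% of the 2462 there, and 208 rose in WT cells, 9.34% of them and 15% of the 1391 there. Of the 3836 copies that fell, 1221 (31.8%) also fell in 1KO cells and 1136 (29.6%) in WT cells. The falls were thus shared with both lines to a similar degree, unlike the rises.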

How the data were processed

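RNA-seq libraries of poly(A) RNA, 1 for each line (WT, 1KO and 1KO+1CI) and each of days 0, 2 and 4, were used as deposited. The libraries were grouped by the line and day in their labels. Per the study's methods, the authors trimmed paired reads with Trim Galore, aligned them to mm10 with HISAT2, converted them to BAM with SAMtools and computed FPKM values for genes and for repeat copies with HOMER analyzeRepeats.pl. For the annotation, the strand setting, reads with several matches and tool versions, nothing is stated in the sources at hand. The deposited tables hold FPKM and no counts, and no value in them was 0. From 15095 entries in the gene table, 21 were left out because their symbol had become a date (20) or a 0 (1).

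The change was computed as log2(FPKM + 1) on day 4 minus day 2, with a pseudocount of 1, and 2-fold was taken as the mark. A repeat family's change was taken from the mean FPKM of its copies, for families with at least 10 copies. With 1 library per side no test was run. A model with line and day as additive terms on all 9 libraries was feasible and was left out. Depth was estimated from the value of 1 read at 97 miRNA hairpin loci, and reads were recovered for short features only. Intervals for sums of reads are exact if each read was counted at 1 locus only, and they cover counting error.

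The comparison and the 44 gene lists and 11 repeat groups were chosen with earlier results of these data known, so no list is independent support. Beyond list members at the ends of their list or past the mark, genes were named by rule: the 20 largest rises and falls among genes with at least 1 FPKM on either day, the 10 largest differences from 1KO cells in each direction, the 10 highest levels on day 4, the 10 repeat families and 5 copies with the largest rise and fall. Other members named as contrasts, such as Pou5f1, Srf and Ctnnb1, were chosen after their values were seen. Promoter windows and mature miRNA sequences came from RefSeq (GRCm38.p6). A window was found for 11638 of the genes. Alternatives covered the pseudocount, the scaling, a filter on low values, the threshold and the summary. A few genes that met these rules are not reported here. Scripts were tested on simulated data and run with Python 3.11.15, pandas 2.3.3, NumPy 2.4.6, SciPy 1.17.1 and matplotlib 3.10.9.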

Additional observations from a re-analysis of the deposited data

Results flagged for a closer look

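In 3 genes the change from day 2 to day 4 went in opposite directions in 1KO+1CI and 1KO cells, by 2-fold or more in each. With 1 library per condition the difference was not tested. Erdr1, a gene of the pseudoautosomal region with near-identical copies, changed by 1.17 in 1KO+1CI cells, on 65 and 158 reads, and by −2.07 in 1KO cells. Mir3072, a miRNA locus, changed by −1.10 in 1KO+1CI cells, on 11 and 4 reads, and by 1.17 in 1KO cells. Snord110, a small nucleolar RNA locus that poly(A) libraries cover poorly, changed by −1.45 in 1KO+1CI cells, on 5 and 1 reads, and by 1.42 in 1KO cells.

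In 13 genes the change went opposite to that in WT cells, again by 2-fold or more in each line and again not tested. Upp1, uridine phosphorylase, fell in 1KO+1CI cells (−1.29) and rose in WT cells (1.99), with day 2 levels of 117 and 27.3 FPKM and day 4 levels of 47.3 and 112 FPKM. The other 4 with a fall in 1KO+1CI cells were Btbd17 (−1.19, and 1.28 in WT), Rims4 (−1.09 and 1.48), the meiotic gene Meioc (−1.07 and 1.098) and Snord110 (1.32 in WT). The 8 with a rise were the Wnt ligand gene Wnt7b (1.05, and −1.40 in WT), Gpat3 (1.07 and −1.12), Stard8 (1.09 and −1.56), Gprc5a (1.19 and −1.06), the folate receptor gene Folr1 (1.23 and −1.30), 4933402E13Rik (1.25 and −1.52), Krt17 (1.27 and −1.57) and Serpinb9b (1.48 and −1.13). Of these 13 genes, the change in 1KO cells was past 2-fold in Stard8 (1.05) and Snord110 (1.42).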

How the results depend on the processing

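Each side is 1 library, so neither the spread between cultures nor clone effects could be measured, and values near the 2-fold mark may fall on either side of it. No paired analysis was possible because the reported values come from no test and each line has 1 library per day, so no replicate could be left out. A day effect shared by the 3 lines could be fitted and was not. Scaling the gene table to equal sums (TPM) or by median ratios kept all 6 counts within 1.5 times and moved none of the 44 list medians and 371 families by over 0.25, and a minimum of 1 FPKM kept the 6 counts, moved 5 of 43 lists and 10 of 371 families, and left no Hox gene. A pseudocount of 0.1 or 0.01 in place of 1 gave 1188 or 1421 genes higher and 1057 or 1297 lower, 574 or 817 above 1KO and 652 or 945 below it, 4546 or 5627 copies higher and 9845 or 10419 lower. It also gave −1.76 or −2.02 for L1Md_A, 1.58 or 1.68 for MERVL-int and 3.81 or 3.86 for the primitive streak median, and at 0.01 the naive pluripotency median was −1.98. In all, these pseudocounts moved 7 or 9 of the lists and 45 or 57 of the families. A 4-fold mark left 67 genes higher and 70 lower. Median-ratio scaling of the repeat copies gave 3413 copies higher and 2213 lower, 2.40 for IAPEz-int and −0.96 for MMSAT4, and moved 177 of 371 families. The median over copies was −0.98 for MMSAT4 and turned MLT1A1 to −0.35, and it moved 58 families, MMSAT4 included. Of the 371 families 9 were past the mark upward and 3 downward, and these numbers were 11 and 17 with a pseudocount of 0.1, 11 and 20 with 0.01, 10 and 8 with the minimum of 1 FPKM and 6 and 1 for the median over copies. The mean in place of the median moved 2 of 44 lists. Depth limits short features most: 29.8% of copies past the mark with recovered reads had fewer than 10 reads in the higher library.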

Other observations

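Several of the largest rises belong to no list above. Ism2, which encodes a secreted isthmin protein, went from 0.168 to 10.6 FPKM in 1KO+1CI and from 0.151 to 7.75 FPKM in 1KO cells, and stood at 0.211 and 0.188 FPKM in WT cells. Rtl8c, a gene derived from a retrotransposon, went from 0.793 to 15.4 FPKM in 1KO+1CI, from 0.701 to 13.9 FPKM in 1KO and from 0.778 to 1.35 FPKM in WT cells. Both were under 1 FPKM on day 2 in all 3 lines and on day 4 were higher in the Dnmt1-/- lines than in WT cells. On day 0 both had been higher than on day 2 in every line. Ism2 stood at 2.63, 1.52 and 1.67 FPKM in 1KO+1CI, 1KO and WT cells on day 0, and Rtl8c at 3.43, 2.03 and 1.27 FPKM.

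Among the largest falls, Mylpf, a myosin light chain gene, went from 35.0 to 2.43 FPKM in 1KO+1CI cells, and it fell by 3.26 in 1KO and by 3.71 in WT cells. Enox1, Morc1 and Jam2 also fell in all 3 lines. Dmrt1, a transcription factor gene of the germ line and gonad, went from 15.9 to 1.52 FPKM in 1KO+1CI cells, with a change of −2.75 beside −1.86 in 1KO and −0.31 in WT cells, where it began at 5.66 FPKM on day 2. Gm32885 went from 31.0 to 2.20 FPKM, with a change of −3.32 beside −2.02 and −0.42.

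On the X chromosome 45 of 551 genes (8.17%) rose in 1KO+1CI cells, and on single autosomes the share was 2.16% to 5.33%. In 1KO cells 42 genes of the X chromosome (7.62%) rose, and in WT cells 29 (5.26%). No test was made of these shares.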
